A study of Mus musculus with 2 samples.

Results

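The heat shock chaperones described here are 10 genes out of 31053 in the count tables: Hspa1a, Hspa1b, Hspa8, Hspa5, Hsp90aa1, Hsp90ab1, Dnajb1, Hsph1, Hspb1 and Hspd1. They were taken by gene symbol, not by their values, and each symbol matched 1 row. Droplet-based 3′ single cell RNA-seq measured them in skin cells of 1 control and 1 miR-205-induced mouse at postnatal day 53. The miR-205-induced mouse carried the pTRE2-miR-205 transgene, which was made in FVB mice, and Krt14-rtTA, a transactivator that drives the transgene in the skin epithelium when doxycycline is given. Both mice carried Krt14-H2b-GFP, which marks the nuclei of Krt14-expressing cells, and the strain label of both is C57BL/6. Chow with doxycycline was fed over 4 days, starting at postnatal day 49. The protocol states this for both mice, whereas the sample label calls the control untreated. Mature miR-205 has no poly(A) tail and is not captured by this assay, so its induction was not checked here. Cells were freed with collagenase for 2 h at 37 °C and then trypsin for 7 min, and sorted epidermal, follicle and dermal cells were mixed at 3:5:2, so cell shares follow the mixture. With 1 library per group no test of the induction is possible: every interval below is a 95% interval for counting error only, and mouse, dissociation and library cannot be told apart from induction.

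Chaperones hold unfolded proteins and help them to fold, and many of their genes are switched on by heat shock factor 1 when cells are warmed or their proteins misfold. Hsp70 proteins (the Hspa genes) bind exposed stretches of unfolded chains in a cycle run by ATP, J-domain proteins such as Dnajb1 bring clients to them, and Hsph1 exchanges their nucleotide. Hsp90 proteins finish the folding of kinases and hormone receptors, small heat shock proteins such as Hspb1 hold clients without ATP, and Hspd1 forms a folding chamber in mitochondria. Enzymatic release of cells from skin is itself known to raise Hspa1a, Hspa1b and immediate early genes such as Fos and Jun. miR-205 is an epithelial microRNA whose transgene is driven here in the skin epithelium, with doxycycline started while hair follicles were quiescent. From such follicles, hair follicle stem cells (HF-SCs) of the bulge and the hair germ (HG) below it restart hair growth.

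The miR-205 sequence and the start regions of 5 chaperone genes are shown to let a reader see which regulatory letters each member does and does not carry. The mature miR-205-5p (RefSeq, GRCm38.p6, chr1:193507503-193507524, minus strand, 22 bases) has its seed, bases 2 to 8, in capitals. The complement of the seed, ATGAAGG, was in none of the longest annotated 3′ UTRs of the 10 members, against 2064 of 19915 protein-coding genes (10.4%). RefSeq promoters of 250 bases before to 50 after a start were matched for 7 of the 10 members, with 10 starts. Capitals mark heat shock element letters (GAANNTTC, TTCNNGAA or a 3-unit run in which they overlap by 3 letters, both strands), or in Hspa5 the ER stress element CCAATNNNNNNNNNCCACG.
miR-205-5p: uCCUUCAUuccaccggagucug
Hspa1a, chr17:34972107-34972406, minus strand: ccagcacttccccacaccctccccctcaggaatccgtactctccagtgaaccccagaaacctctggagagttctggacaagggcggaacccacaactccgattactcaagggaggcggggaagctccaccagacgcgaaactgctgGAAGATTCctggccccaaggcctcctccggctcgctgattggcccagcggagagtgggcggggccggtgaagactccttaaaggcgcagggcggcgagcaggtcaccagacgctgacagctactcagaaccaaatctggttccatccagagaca
Hspa1b, chr17:34959189-34959488, minus strand: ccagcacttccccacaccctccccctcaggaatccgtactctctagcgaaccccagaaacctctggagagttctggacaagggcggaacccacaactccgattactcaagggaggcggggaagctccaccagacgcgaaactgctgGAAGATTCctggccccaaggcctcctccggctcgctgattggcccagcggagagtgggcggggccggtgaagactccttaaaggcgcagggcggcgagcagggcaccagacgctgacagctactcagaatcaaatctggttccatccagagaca
Hspa5, chr2:34771840-34772139, plus strand: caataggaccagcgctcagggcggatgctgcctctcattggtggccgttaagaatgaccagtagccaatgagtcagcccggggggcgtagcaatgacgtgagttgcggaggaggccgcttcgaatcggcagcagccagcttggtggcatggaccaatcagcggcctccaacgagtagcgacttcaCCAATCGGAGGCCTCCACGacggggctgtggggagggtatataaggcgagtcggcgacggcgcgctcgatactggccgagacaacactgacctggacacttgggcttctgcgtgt
Hspb1, chr5:135887669-135887968, plus strand: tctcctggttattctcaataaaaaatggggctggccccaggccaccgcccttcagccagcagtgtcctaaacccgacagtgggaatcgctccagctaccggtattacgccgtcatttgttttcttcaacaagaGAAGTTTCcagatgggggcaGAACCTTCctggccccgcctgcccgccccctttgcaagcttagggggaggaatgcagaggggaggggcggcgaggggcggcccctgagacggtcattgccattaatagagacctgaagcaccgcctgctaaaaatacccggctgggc
Hsph1, chr5:149636266-149636565, minus strand: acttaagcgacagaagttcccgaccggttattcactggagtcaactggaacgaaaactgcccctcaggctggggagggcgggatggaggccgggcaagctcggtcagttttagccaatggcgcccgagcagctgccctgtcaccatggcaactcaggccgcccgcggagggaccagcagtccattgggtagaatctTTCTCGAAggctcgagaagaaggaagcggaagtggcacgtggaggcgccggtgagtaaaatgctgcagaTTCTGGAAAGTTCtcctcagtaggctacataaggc

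The Hspa1a and Hspa1b regions differed at 4 of 300 bases, C44T, T47C, T249G and C276T, with the Hspa1a base first and positions counted from the 5′ end, and both held GAANNTTC from −104 to −97. Hspb1 held GAANNTTC in 2 places, at −117 and −97. Hsph1 held TTCNNGAA at −54 and a 3-unit run that began 16 bases after the start. Hspa5 held no heat shock letters but the ER stress element at −65. One Hspd1 start held overlapping 3-unit runs from −144 to −127, and neither Dnajb1 start held any. Of 32851 promoters, 7.86% held GAANNTTC, 8.52% TTCNNGAA, 0.603% a 3-unit run and 0.119% the ER stress element. A 3-unit run is therefore counted under all of the first 3 shares. Such a match describes the letters only.

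The libraries held 4545 control and 4264 miR-205-induced barcodes, of which 3936 and 3628 passed the study's filter (over 200 and under 5000 genes, under 10% mitochondrial UMIs). A UMI (unique molecular identifier) is 1 counted transcript molecule. Median depth was 12198.5 and 11752.5 UMIs per cell, median mitochondrial share 4.94% and 4.95%, and 5 kept barcodes occurred in both libraries. Each cell was placed in a class by UMIs of marker genes, which put 1926 control (48.9%) and 2036 miR-205-induced cells (56.1%) in exactly 1 class and left the others out of the class results. HF-SC-like cells, for example, held at least 1 UMI of both Cd34 and Krt24 and 10 of Krt14 and Krt5, and numbered 233 and 300. Postn, Lhx2, Krt15 and Nfatc1, which the rule did not use, were 16.1-fold, 11.9-fold, 3.50-fold and 2.23-fold higher in them than in the other classes of the control library. In the miR-205-induced library they were 10.4-fold, 8.43-fold, 3.55-fold and 1.60-fold higher, in that order. HG-like cells (Lgr5 with no Cd34, Krt24, Krt75 or Fgf18) numbered 133 and 132. In them Gli1, Lef1 and Cdh3 were 14.1-fold, 7.24-fold and 1.97-fold higher in the control library. The folds were 9.19, 3.58 and 3.72 in the miR-205-induced library. Raising each marker minimum by 1 UMI removed 68 and 42 of the HF-SC-like and 61 and 58 of the HG-like cells. The 11 classes with at least 50 cells in each library are used here. Levels are given as CPM, the UMIs of a gene scaled to the total UMIs of its class in that library, and a member is called past the fold when its 2 levels differ by at least 1.5-fold.

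The chaperones differed in how far their levels spanned the skin cell classes. The largest span was that of Hspb1, from 111 CPM in fibroblast-like to 13391 CPM in HF-SC-like cells of the control library, or 121-fold, and 76.5-fold in the miR-205-induced library. In the control library Dnajb1 spanned 18.4-fold, Hspa1a 16.5-fold, Hspa1b 12.1-fold, Hspd1 7.23-fold, Hsph1 6.39-fold, Hspa8 4.49-fold, Hspa5 3.98-fold, Hsp90aa1 2.62-fold and Hsp90ab1 1.51-fold. In the miR-205-induced library Hspd1 spanned 18.6-fold, Dnajb1 9.30-fold, Hspa1b 7.77-fold, Hspa1a 7.18-fold, Hsph1 6.29-fold, Hspa5 2.95-fold, Hspa8 2.90-fold, Hsp90aa1 2.68-fold and Hsp90ab1 1.55-fold. HF-SC-like cells had the highest Hspb1, Dnajb1 and Hsp90aa1 of the 11 classes in both libraries. For Hsp90aa1 the interval of HF-SC-like cells met that of dermal papilla-like cells. No class level below is compared between genes.

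**Figure D1:**
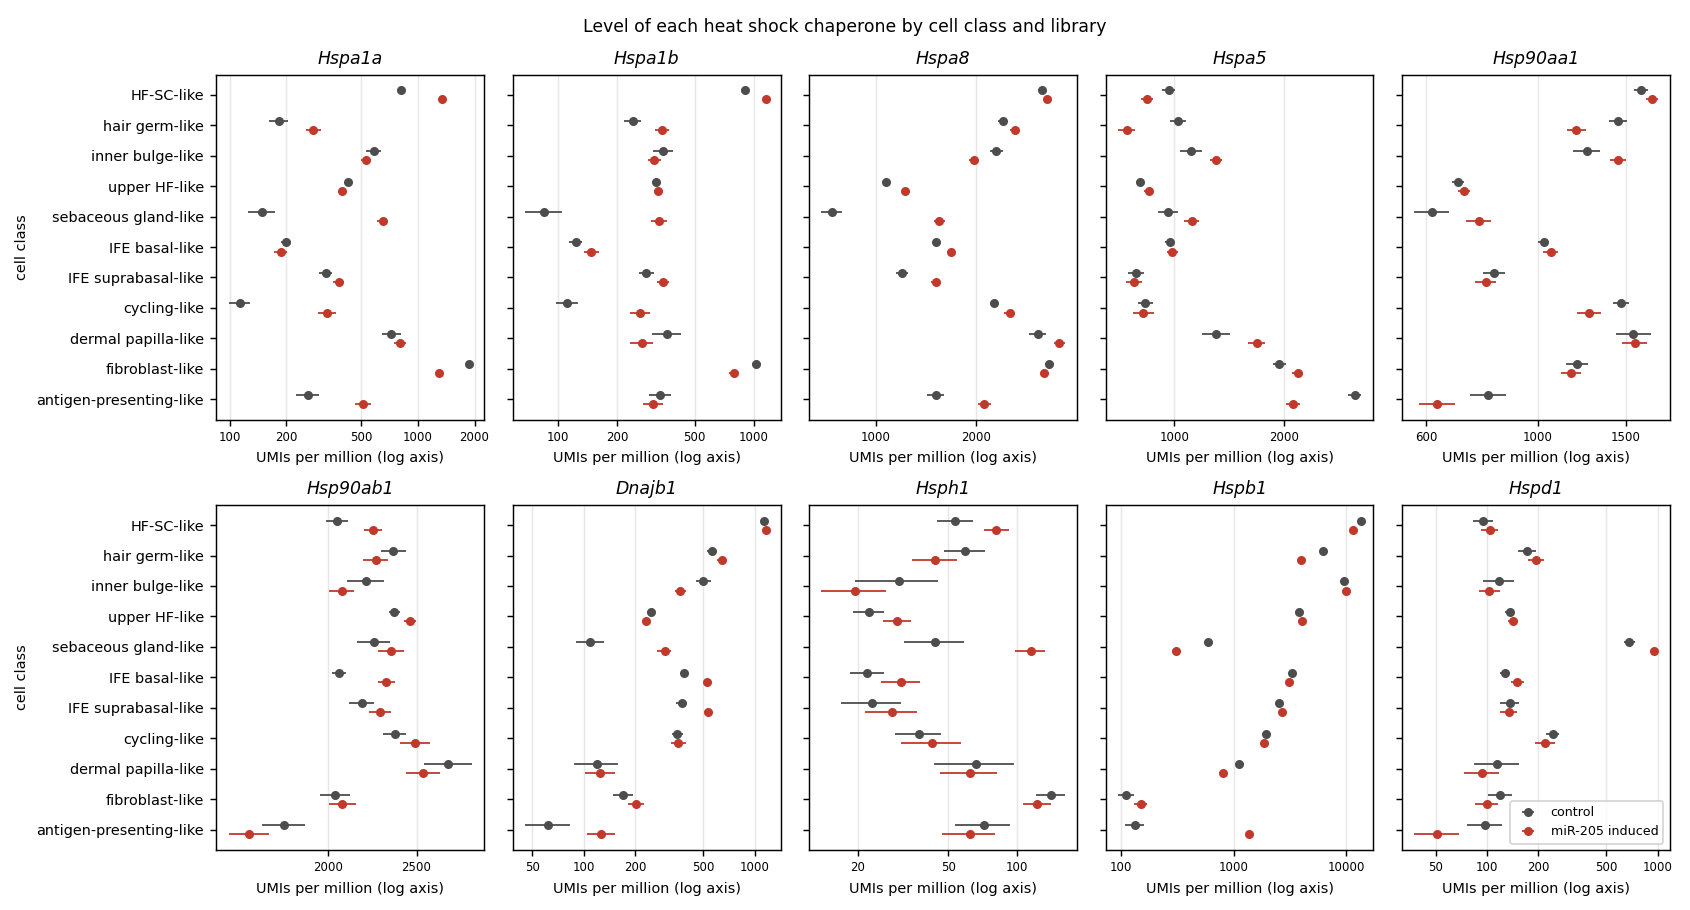
Level of each of the 10 chaperone genes (CPM, log axis) in the 11 skin cell classes of the control and the miR-205-induced library, with 95% Poisson intervals. Hspb1 runs from 111 to 13391 CPM over the control classes, whereas Hsp90ab1 stays between 1788 and 2708 CPM.

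Hspa1a (ENSMUSG00000091971, chr17:34969359-34972156) and Hspa1b (ENSMUSG00000090877, chr17:34956429-34959238), on GRCm38.p6 as are all positions given here, encode the stress-inducible cytosolic Hsp70. The genes are near-identical copies, so reads may be split between them uncertainly, and their sum is given too. In HF-SC-like cells Hspa1a stood at 816 CPM (780 to 854) in the control and 1345 CPM (1304 to 1386) in the miR-205-induced library, a log2 ratio of 0.72 (0.64 to 0.80). Hspa1b stood at 898 and 1150 CPM, a log2 ratio of 0.36 (0.28 to 0.44). Both copies were higher in the miR-205-induced library, and their sum had a log2 ratio of 0.54 (0.49 to 0.60). The share of Hspa1a among UMIs of the pair was 47.6% and 53.9%. The 5 highest cells held 33.7% and 24.2% of the Hspa1a UMIs, and without them the log2 ratio was 0.91. Among the 67 and 78 HF-SC-like cells under 5% mitochondrial UMIs it was 1.24 for Hspa1a and 0.85 for Hspa1b. Markers of the HF-SC-like class differed between the libraries too. Krt24 was at 468 and 1031 CPM, Cd34 at 661 and 896 CPM and Krt15 at 9120 and 11595 CPM. Postn, at 1161 and 1115 CPM, and Nfatc1, at 142 and 116 CPM, went the other way. The part of this difference in make-up in the HF-SC-like ratios was not tested. HG-like cells had 182 and 278 CPM of Hspa1a (log2 ratio 0.61, 0.40 to 0.82) and 241 and 339 CPM of Hspa1b (0.49, 0.30 to 0.68), with a summed log2 ratio of 0.54. Without the 5 cells of each library with the most UMIs of the gene, Hspa1a had a log2 ratio of 0.94 in HG-like cells, and it was −0.03 among the 42 and 29 HG-like cells under 5% mitochondrial UMIs.

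Other classes differed in direction. In fibroblast-like cells, the highest class of the control library, Hspa1a was 1865 CPM in the control and 1296 CPM in the miR-205-induced library, a log2 ratio of −0.52 (−0.61 to −0.44), and Hspa1b 1028 and 793 CPM, a log2 ratio of −0.37 (−0.48 to −0.26). In upper HF-like cells the sum of the pair had a log2 ratio of −0.05 (−0.10 to 0.01). In sebaceous gland-like cells Hspa1a was 148 and 650 CPM (log2 ratio 2.13) and Hspa1b 84.7 and 328 CPM (1.95), over 56 and 69 cells. In cycling-like cells, with 103 and 53 cells, the log2 ratios were 1.54 for Hspa1a (113 and 329 CPM) and 1.24 for Hspa1b (111 and 264 CPM). The median cycling-like cell held 54 and 81 UMIs of the HF-SC markers, 256 and 370 of the IFE basal markers and 40 and 24 of the upper HF markers, and the part of this difference in make-up was not tested. In the sebaceous gland-like class 5 cells held 68.4% and 75.6% of all Hspa1a UMIs, and in the cycling-like class 36.4% and 68.5%. Without the 5 highest cells of each library, the log2 ratios in sebaceous gland-like cells were 1.67 for Hspa1a and 2.23 for Hspa1b, whereas those in cycling-like cells were 0.62 and 0.45, the latter below the fold. Among sebaceous gland-like cells under 5% mitochondrial UMIs, 6 in each library, the log2 ratio of Hspa1a was −0.32.

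Per cell, the pair was concentrated in a minority. Each cell was thinned to 5000 UMIs so that depth was equal, and cells with fewer UMIs were left out (304 and 328 of all kept cells, 11 and 9 of the HF-SC-like). Of the HF-SC-like cells, 20.7% (15.6 to 26.7%) in the control and 28.9% (23.7 to 34.4%) in the miR-205-induced library then held at least 10 UMIs of the pair. Those cells held 78.9% and 85.2% of the pair's UMIs, while 22.5% and 16.8% of HF-SC-like cells held none. The median was 3 UMIs in both libraries, against means of 8.77 and 11.8. Among fibroblast-like cells, 36.9% and 28.5% held at least 10 UMIs and 7.77% and 20.4% held none. The intervals of both libraries met in each of these shares of cells.

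**Figure D2:**
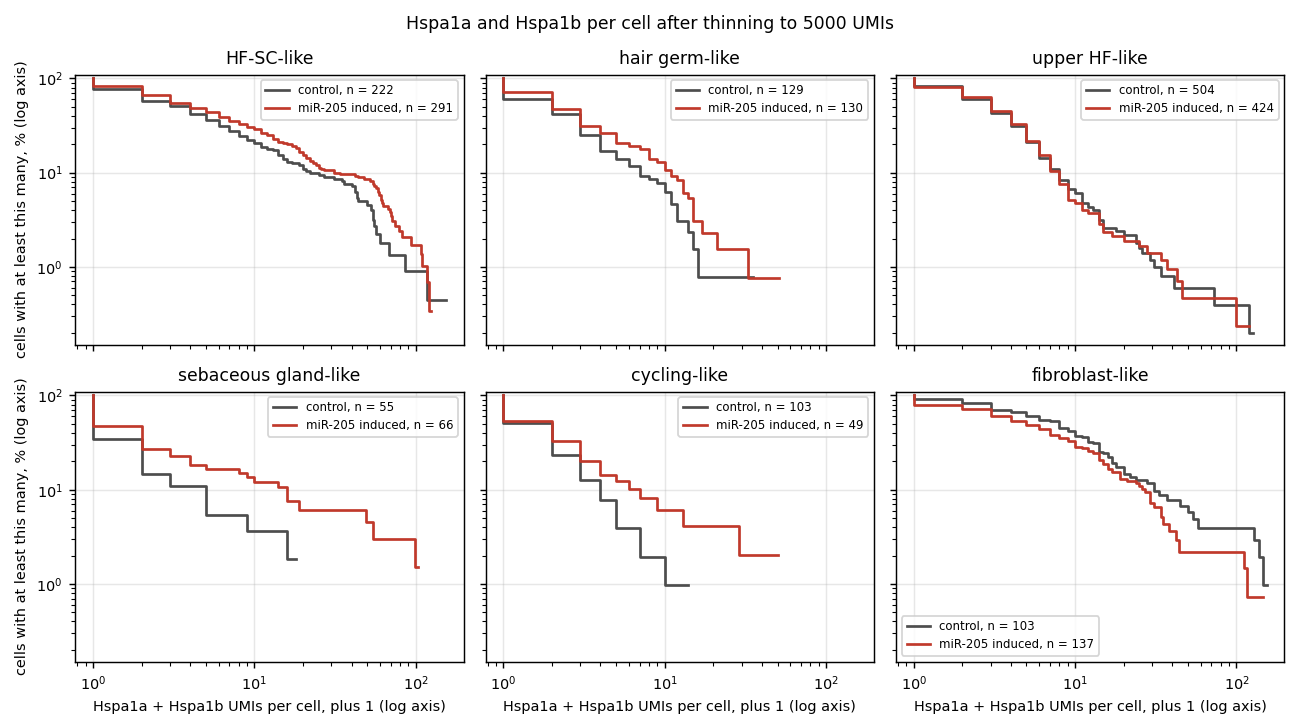
Share of cells (percent, log axis) with at least a given number of UMIs of Hspa1a and Hspa1b together (plus 1, log axis), each cell thinned to 5000 UMIs, for 6 classes with a line per library. The miR-205-induced line lies mostly above the control in HF-SC-like cells, where 28.9% and 20.7% reach 10 UMIs but the highest cells hold 124 and 152 UMIs, and mostly below it in fibroblast-like cells.

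Hspa8 (ENSMUSG00000015656, chr9:40801276-40805202), the constitutive cytosolic Hsp70, was high in every class, from 739 CPM in sebaceous gland-like to 3323 CPM in fibroblast-like cells of the control library. In HF-SC-like cells it was 3154 and 3268 CPM, a log2 ratio of 0.05 (0.01 to 0.09), and in HG-like cells 2409 and 2616 CPM (0.12). Sebaceous gland-like cells, at 739 and 1555 CPM (log2 ratio 1.07, 0.95 to 1.19), were the class in which it passed the fold. Hspa5 (ENSMUSG00000026864, chr2:34772090-34776529), the Hsp70 of the endoplasmic reticulum (ER), had another order of classes: antigen-presenting-like cells were highest in the control library at 3128 CPM, followed by fibroblast-like cells at 1943 CPM. Hspa5 was lower in the miR-205-induced library in HF-SC-like cells (965 and 843 CPM, log2 ratio −0.20, −0.28 to −0.11), HG-like cells (1024 and 740 CPM, −0.47, −0.58 to −0.36) and antigen-presenting-like cells (3128 and 2120 CPM, −0.56, −0.65 to −0.47). It was higher in dermal papilla-like cells (1300 and 1684 CPM, 0.37, 0.22 to 0.52). None of these reached 1.5-fold.

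The cytosolic Hsp90 genes varied less. Hsp90aa1 (ENSMUSG00000021270, chr12:110691036-110696395), the stress-responsive form, was 1610 and 1688 CPM in HF-SC-like cells (log2 ratio 0.07) and 1446 and 1194 CPM in HG-like cells (−0.28, −0.36 to −0.19). Hsp90ab1 (ENSMUSG00000023944, chr17:45567778-45573261), the constitutive form, lay between 1638 CPM in antigen-presenting-like cells of the miR-205-induced library and 2708 CPM in dermal papilla-like cells of the control. Its log2 ratio was 0.13 among HF-SC-like and −0.06 among HG-like cells. Over the 11 classes the log2 ratios of Hsp90aa1 ran from −0.34 to 0.31 and those of Hsp90ab1 from −0.13 to 0.17.

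Among the partners of Hsp70, Dnajb1 (ENSMUSG00000005483, chr8:83608175-83612653) was highest in HF-SC-like cells at 1140 and 1166 CPM, a log2 ratio of 0.03 (−0.04 to 0.11). HG-like cells followed at 563 and 643 CPM (0.19). It was therefore close to equal in the same HF-SC-like cells in which Hspa1a was 1.65-fold higher. IFE basal-like cells had 386 and 528 CPM of Dnajb1 (0.45, 0.36 to 0.54) and IFE suprabasal-like cells 376 and 535 CPM (0.51, 0.38 to 0.65), below the fold. Hsph1 (ENSMUSG00000029657, chr5:149616843-149636498) was counted far less often, with 127 and 250 UMIs in HF-SC-like cells, or 53.7 and 81.4 CPM (log2 ratio 0.60, 0.29 to 0.92). This just passed the fold, and stayed past it in 5 of 10 alternative analyses (0.25 to 1.09), whereas Hspa1a stayed past it in 10 of 10 (0.64 to 1.24). In HG-like cells Hsph1 was 59.5 and 43.8 CPM (−0.44, −0.90 to 0.01), so the interval held equality.

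**Figure D3:**
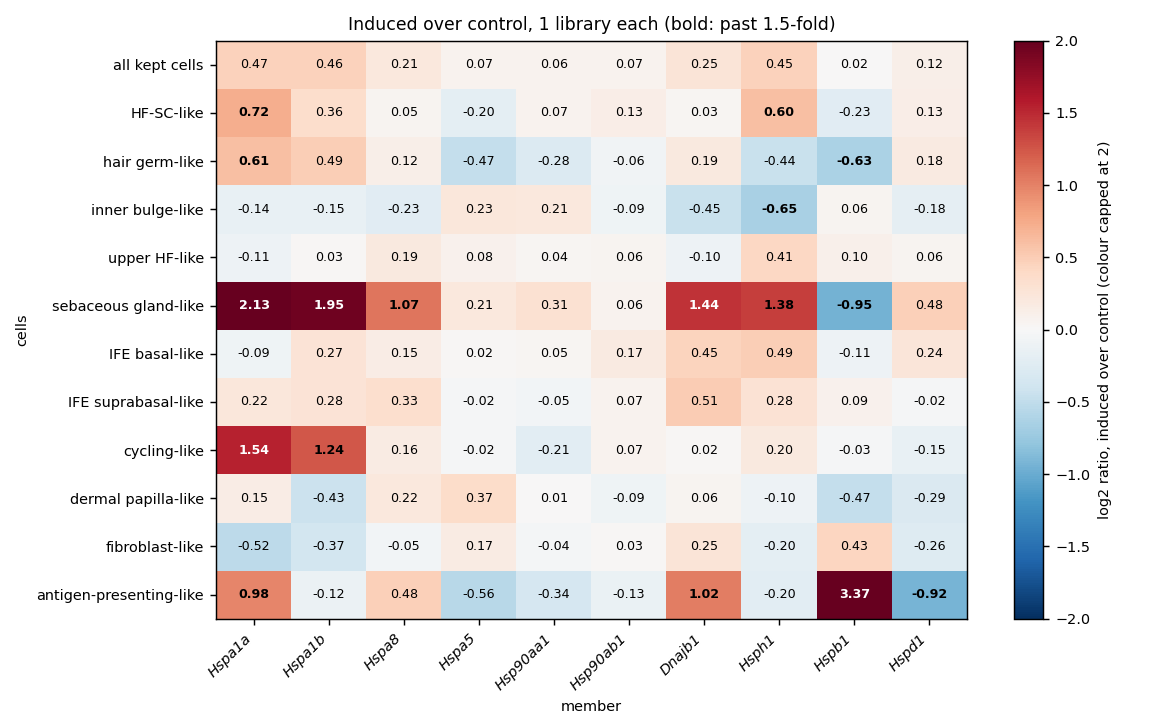
Heat map of the log2 ratio of the miR-205-induced over the control library, with chaperone genes in columns and cell populations in rows, each value printed and in bold where past 1.5-fold (colours capped at 2). For Hspa1a, HF-SC-like cells show 0.72 and fibroblast-like cells −0.52, and Hspb1 at 3.37 in antigen-presenting-like cells.

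Hspb1 (ENSMUSG00000004951, chr5:135887919-135889563), a small heat shock protein of keratinocytes that also binds the cytoskeleton, was highest in HF-SC-like and then inner bulge-like cells in both libraries. In HF-SC-like cells it was 13391 CPM (13244 to 13539) in the control and 11408 CPM (11289 to 11528) in the miR-205-induced library, a log2 ratio of −0.23 (−0.25 to −0.21), with a UMI in 100% of cells of both. Among HF-SC-like cells under 5% mitochondrial UMIs the log2 ratio of Hspb1 was 0.02. Inner bulge-like cells followed at 9485 and 9881 CPM. Upper HF-like cells were at 3779 and 4039 CPM and IFE basal-like cells at 3301 and 3065 CPM. In the miR-205-induced library the interval of upper HF-like cells met that of HG-like cells. HG-like cells had 6148 and 3969 CPM, a log2 ratio of −0.63 (−0.68 to −0.59), which was past the fold and stayed so in 9 of 10 alternatives (−0.72 to −0.56). The median HG-like cell held 53 and 36.5 UMIs of it. That cell also held 29 and 41.5 UMIs of the HF-SC markers, 156 and 119.5 of the IFE basal markers and 33 and 30.5 of the upper HF markers. The part of this difference in make-up in this or any other ratio of HG-like cells was not tested. In dermal papilla-like cells Hspb1 was 1118 and 807 CPM (−0.47, −0.65 to −0.29).

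Hspb1 was lowest in fibroblast-like and antigen-presenting-like cells of the control library. After thinning, a UMI of it was found in 36.9% and 33.6% of fibroblast-like cells and in 34.8% and 23.9% of antigen-presenting-like cells (54.4%, 53.9%, 47.9% and 38.8% before thinning, at median depths of 11229, 10357.5, 9234 and 10247 UMIs). The part of RNA free in the suspension in these UMIs was not tested. In the antigen-presenting-like class 1 miR-205-induced cell held 1204 of the 1243 UMIs, and the largest count outside the 5 highest cells was 2. The log2 ratio of 3.37 (132 and 1378 CPM) became −0.95 without the 5 highest cells of each library. The 5 miR-205-induced cells had a median depth of 25956 UMIs, against 10134 in the others, and a median of 9 UMIs of 28 epithelial marker genes, against 4. The lowest of these 5 held 2 UMIs of Hspb1, so the medians do not describe the cell with 1204. Its own depth and markers were not looked at. Without the cells of highest doublet scores the log2 ratio was 3.40. In sebaceous gland-like cells Hspb1 was 593 and 307 CPM (−0.95), and 5 cells held 86.7% and 86.5% of its UMIs, with a median of 1 UMI in the rest. Without those 5 the log2 ratio was −1.01.

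Hspd1 (ENSMUSG00000025980, chr1:55077833-55088243), the mitochondrial Hsp60, was highest in sebaceous gland-like cells, a class that makes lipid, at 682 and 951 CPM (log2 ratio 0.48, 0.35 to 0.61). Cycling-like cells followed at 243 and 219 CPM. HF-SC-like cells had the lowest level of the control library, 94.4 CPM, and 103 CPM in the miR-205-induced library (0.13, −0.12 to 0.38), and HG-like cells 171 and 193 CPM (0.18, −0.06 to 0.41). In both follicle classes the interval held equality. The only class past the fold was the antigen-presenting-like, at 97.2 and 51.0 CPM (−0.92), with 72 and 46 UMIs. That ratio stayed past the fold in 8 of 10 alternatives, but was −0.17 without the 5 highest cells of each library.

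Counted over the members, few passed the fold, and the same share of all genes is given beside each count. Over all kept cells 0 of 10 members were past 1.5-fold in either direction, where 15.3% of 14484 genes were higher and 2.89% lower in the miR-205-induced library. In HF-SC-like cells 2 were higher (Hspa1a and Hsph1; 12.3% of genes) and 0 lower (6.64%). In HG-like cells 1 was higher (Hspa1a; 15.9%) and 1 lower (Hspb1; 10.6%). Sebaceous gland-like cells had 5 higher (Hspa1a, Hspa1b, Hspa8, Dnajb1 and Hsph1; 12.9%) and 1 lower (Hspb1; 14.3%), cycling-like cells 2 higher (Hspa1a and Hspa1b; 10.6%) and 0 lower (11.5%), and inner bulge-like cells 0 higher (11.7%) and 1 lower (Hsph1; 9.42%). That Hsph1 ratio rested on 24 and 39 UMIs, and its interval (−1.41 to 0.16) held equality. The inner bulge-like counts were 3 higher and 1 lower under 5% mitochondrial UMIs, 2 and 0 without the 5 highest cells, and 0 and 5 with each marker minimum raised by 1 UMI. Antigen-presenting-like cells had 3 higher (Hspa1a, Dnajb1 and Hspb1; 15.1%) and 1 lower (Hspd1; 14.1%). No member was past the fold in upper HF-like (7.86% higher, 4.53% lower), IFE basal-like (9.22%, 5.56%), IFE suprabasal-like (8.99%, 7.42%), dermal papilla-like (10.4%, 15.3%) or fibroblast-like cells (13.4%, 6.53%). In IFE basal-like cells 4 members were higher when cells were grouped by clusters of the integrated libraries, and 2 without the highest doublet scores. In dermal papilla-like cells 0 were higher and 2 lower by those clusters, and 2 higher and 1 lower after thinning. In fibroblast-like cells 0 were higher and 2 lower as a mean over cells. In HF-SC-like and HG-like cells the counts first given above are near the share of all genes. The sebaceous gland-like class had 5 members higher, with a median member log2 ratio of 0.78 against −0.01 over all genes. Among its 6 and 6 cells under 5% mitochondrial UMIs, 0 members were higher and 2 lower, with a median of −0.10. Without the 5 cells of each library with the most UMIs of the gene, 4 members were higher and 1 lower, with a median of 0.51. Dnajb1, of which 5 cells held 31% and 64% of the UMIs, was then at 0.46, below the fold. Median depth per cell was 17941.5 and 21004 UMIs in that class. Its own lipid markers differed too, with Scd1 at 3079 and 6154 CPM, Mgst1 at 2553 and 4868 CPM and Elovl3 at 54.5 and 134 CPM, and the part of this difference in make-up was not tested. The median member log2 ratio was 0.10 in HF-SC-like cells (0.08 over all genes) and 0.03 in HG-like cells (0.03 over all genes), and among cells under 5% mitochondrial UMIs 0.45 and −0.14.

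**Figure D4:**
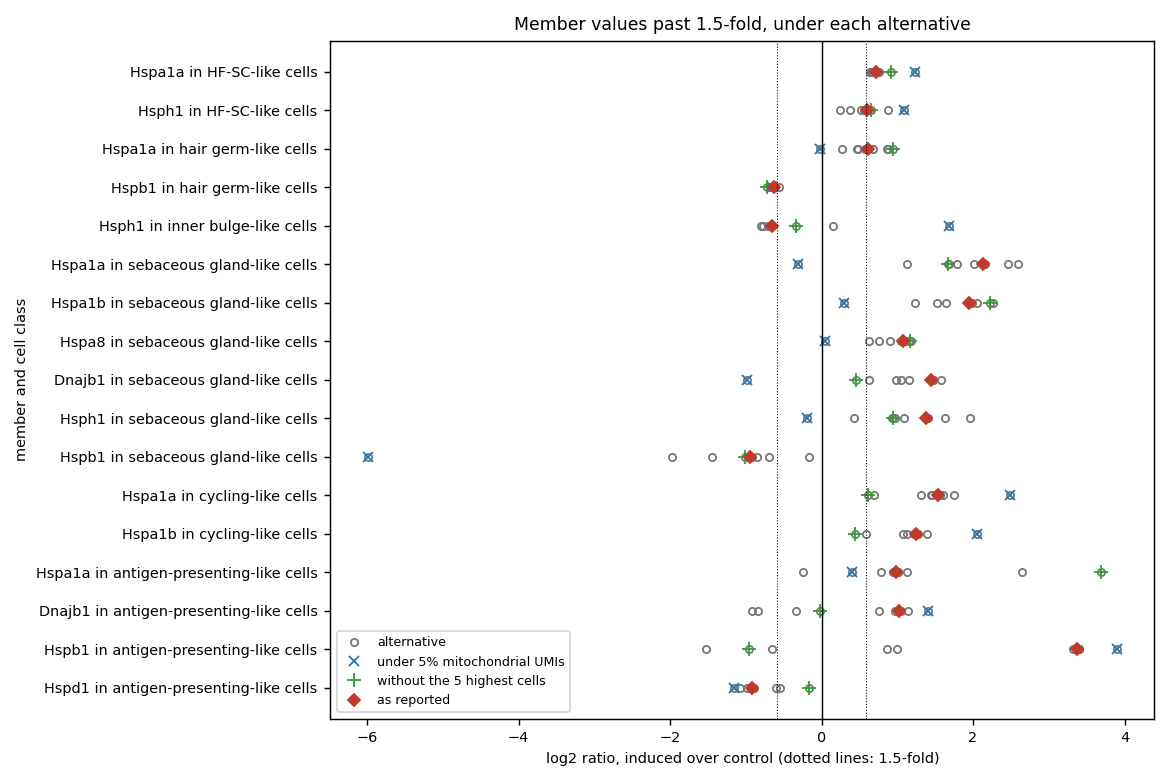
Log2 ratio (x axis) of every chaperone gene and class past 1.5-fold, as reported (diamonds) and under each alternative (open circles, with a cross for cells under 5% mitochondrial UMIs and a plus without the 5 highest cells), and dotted lines at 1.5-fold. Hspa1a in HF-SC-like cells runs from 0.64 to 1.24, past 1.5-fold in each, while Hspb1 in antigen-presenting-like cells runs from −1.53 to 3.90.

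Genes that work with the members were counted in the same way. Of 35 cytosolic co-chaperone and other heat shock genes with at least 20 UMIs, 2 were higher and 1 lower past the fold in HF-SC-like cells, where 12.3% of all genes were higher and 6.64% lower, with a median log2 ratio of 0.10. Hspa4l, a Hsp110 relative, was 99.4 and 152 CPM (log2 ratio 0.61, 0.38 to 0.85) and Dnaja4, a J-domain protein, 72.8 and 120 CPM (0.72, 0.46 to 0.99). None of the 7 genes of the TRiC folding chamber or of the 19 ER chaperone and unfolded protein response genes passed the fold, and 1 of 8 mitochondrial genes did (Dnaja3, 0.61, 0.01 to 1.26). The gene lower there was Bag2, with 16 and 11 UMIs. In HG-like cells, where 15.9% of all genes were higher and 10.6% lower, 3 of 34 co-chaperone genes were higher, Dnajc7 (0.75, 0.32 to 1.21), Dnajb2 (0.62, 0.08 to 1.18) and Cryab (10 and 20 UMIs). A further 3 were lower, the Hsp90 partner Ptges3 (−0.60, −0.82 to −0.38), Hspbp1 (29 and 20 UMIs) and Fkbp5 (16 and 8 UMIs). None of 7 TRiC genes and 1 of 8 mitochondrial genes (Dnaja3, 15 and 28 UMIs) were past the fold. Of the ER genes, 0 of 19 were higher and 2 lower, with a median of −0.22, where Hspa5 was −0.47. The 2 were Herpud1, at 45.1 and 24.2 CPM (−0.89, −1.48 to −0.33), and Hyou1, with 23 and 13 UMIs. In dermal papilla-like cells 8 of 17 ER genes were lower past the fold and 0 higher, with a median of −0.51 against −0.08 over all genes, of which 15.3% were lower. There Hspa5 lay in the opposite direction. Hsp90b1, the ER Hsp90, and Calr, chosen after their values were seen, were lower there at −0.91 (500 and 266 CPM) and −0.80 (729 and 419 CPM). Marker levels of that class differed between libraries too. Notum was at 1433 and 598 CPM, Wif1 at 386 and 339 CPM and Rspo3 at 135 and 171 CPM. Median depth was 4867 and 5713.5 UMIs per cell, and raising each marker minimum by 1 UMI removed 41 of 79 and 84 of 140 cells. The part of these differences in the ER ratios was not tested. In antigen-presenting-like cells, where Hspa5 was lower, 0 of 18 ER genes were higher and 3 lower past the fold, Hyou1 (−1.10), Dnajb11 (−0.71) and Creld2 (−1.22), where 14.1% of all genes were lower. The intervals of 13 of the 18 lay below 0 there, with a median of −0.39 against −0.02 over all genes. Markers of the antigen-presenting-like class differed as well, with Lyz2 at 1869 and 4548 CPM and Cd207 at 10746 and 7369 CPM. The part of this difference in make-up was not tested, for Hspa5 or for the ER genes.

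Immediate early genes, which dissociation is known to raise, did not follow the members evenly. Their summed level over 15 genes was 28020 and 29454 CPM in HF-SC-like cells, where Socs3 alone passed 2-fold (log2 ratio 1.23). In HG-like cells the sum was 10270 and 17368 CPM and 11 of the 15 were higher past 1.5-fold, against 15.9% of all genes. Log2 ratios there were 1.54 for Fos, 1.30 for Btg2, 1.26 for Dusp1, 1.03 for Atf3 and 1.69 for Socs3. In sebaceous gland-like cells, where 5 chaperones were higher, the sum was lower, at 7741 and 5293 CPM. Of 14 immediate early genes with at least 20 UMIs there, 8 were lower past 1.5-fold and 0 higher, against 14.3% and 12.9% of all genes. In cycling-like cells the sum was 10862 and 15991 CPM, with Fos at 1.48 and Atf3 at 1.24. In fibroblast-like cells, where Hspa1a was lower, the sum was 10659 and 11540 CPM. The part of dissociation in the chaperone ratios was not tested.

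Within the HF-SC-like class, correlation between chaperones over cells depended on the pair, and that of Hspd1 with the other members was weak. Across 222 control and 291 miR-205-induced HF-SC-like cells, each thinned to 5000 UMIs, Pearson's r was 0.74 and 0.76 between Hspa1a and Hspa1b, 0.47 and 0.44 between Hspa1b and Dnajb1, and 0.48 and 0.43 between Hspa8 and Hsp90aa1. The immediate early sum had r of 0.49 and 0.45 with Hspa1a, 0.42 and 0.48 with Dnajb1 and 0.33 and 0.49 with Hspb1. The mitochondrial share of a cell had r of −0.22 and −0.41 with Hspb1. Hspa5 had r of 0.08 and −0.06 with Hspa1a. These are descriptions of cells of 1 library each, which share its handling. Across the 22 sums of class and library, r was 0.88 between Hspa1a and Hspa1b and 0.76 between Dnajb1 and Hspb1, and −0.67 between Hspa5 and Hspb1. The genes most like each member over these sums, of 10802, were Iffo2 (0.93), Adipor1 and Vangl2 for Hspb1, Mfap3l (0.93), Amd1 and Lama3 for Dnajb1, Emilin2 (0.94), Nceh1 and Rgl1 for Hspa5, and Psph (0.95), Coq6 and Bcap31 for Hspd1. For Hspa1a they were Mrgprf (0.81), Igfbp6 and Hgsnat, for Hspa1b Slc39a10 (0.78), Inafm1 and Mrgprf, and for Hspa8 Cbx6 (0.90), Erf and Map3k12. For Hsp90aa1 they were Erf (0.90), Oaz2 and Ywhaq, for Hsp90ab1 Hdac2 (0.87), Tanc1 and Yaf2, and for Hsph1 Ccng2 (0.88), Krtcap2 and Ap2a2.

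**Figure D5:**
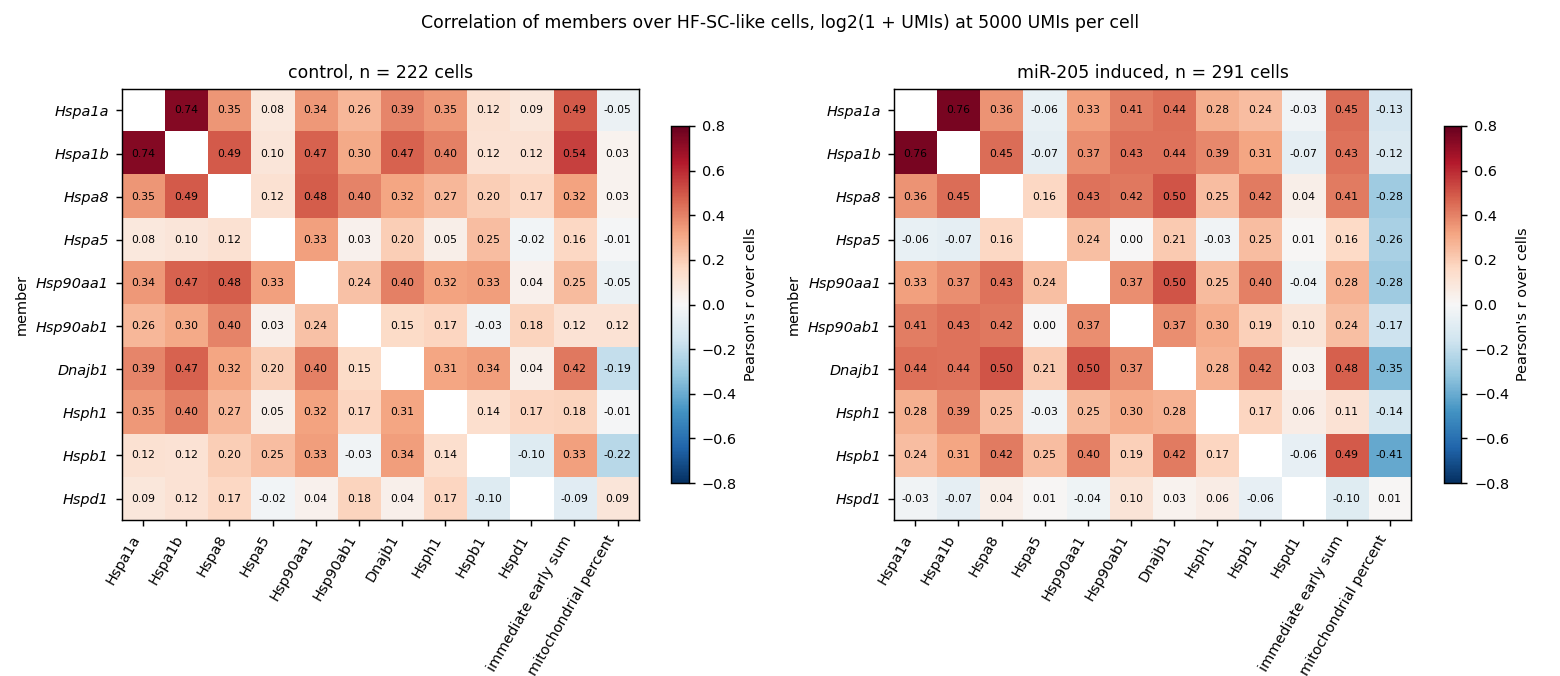
Heat maps of Pearson's r between chaperone genes, the immediate early sum and the mitochondrial percentage over HF-SC-like cells thinned to 5000 UMIs, on the scale log2(1 + UMIs), for the control (222 cells) and the miR-205-induced library (291 cells). Hspa1a and Hspa1b have r of 0.74 and 0.76, and Hspd1 lies between −0.10 and 0.18 with the other chaperone genes.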

How the data were processed

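Single cell suspensions of back skin were run on 1 chip for both mice. Per the labels and headers, the authors made the deposited counts (UMIs per gene and barcode, not normalized) with Cell Ranger 3.0.1, with mm10 named in the submitters' processing notes. Replication was 1 library per group, so no model was fitted and no p-value is given. The study's cell filter was applied (over 200 and under 5000 genes, under 10% mitochondrial UMIs). Cell classes came from UMI minimums of marker genes. The markers were listed beforehand, the minimums were set after the data were seen. UMIs were summed per class and library. Log2 ratios add 0.5 UMI and need at least 20 UMIs over both libraries. Intervals are exact Poisson for levels, conditional binomial for ratios and Clopper-Pearson for shares, at 95%, and cover counting error only. Doublets were kept, with the highest Scrublet scores left out in an alternative. The ratio steps were tested on simulated data. The members, lists and naming rule were chosen with earlier results of these data known. Named were all members, other listed chaperone genes past 1.5-fold with at least 100 UMIs in HF-SC-like or hair germ-like cells (plus genes making up small counts), the 3 most like genes of each member by Pearson's r of log2(CPM + 10) (at least 200 UMIs, 50 cells a class), and immediate early genes past 2-fold. Alternatives changed the filter, classes, doublets, scaling, depth and highest cells. Integrated clusters used Seurat 5.3.0, 2000 variable genes, 30 dimensions and resolution 0.8. Other steps used Python 3.11.15, numpy 2.4.6, scipy 1.17.1, pandas 2.3.3 and scanpy 1.11.5. Promoters and miR-205 are RefSeq sequences on GRCm38.p6, and 3′ UTRs were read from an annotated transcript set of an earlier mouse build.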

Additional observations from a re-analysis of the deposited data

Results flagged for a closer look

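The log2 ratio of Hspb1 between the miR-205-induced and the control library was 3.37 in antigen-presenting-like cells and −0.95 in sebaceous gland-like cells, in opposite directions beyond their counting intervals. With 1 library per group this difference between classes was not tested. In the first class 1 cell held 1204 of 1243 UMIs, and in the second 5 cells held 86.7% and 86.5% of the UMIs. Without the 5 highest cells of each library the log2 ratio was −0.95 in the first class and −1.01 in the second.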

How the results depend on the processing

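No paired analysis was possible because each group has 1 library. Under 5% mitochondrial UMIs the median log2 ratio of the 10 members was 0.45 in HF-SC-like cells (67 and 78 cells), −0.14 in hair germ-like cells (42 and 29 cells) and 0.20 over all kept cells. In hair germ-like cells it was also 0.10 with totals without mitochondrial and ribosomal protein genes and −0.12 without the 5 highest cells. Over all kept cells it was 0.14 with every barcode, 0.068 with a median-of-ratios size factor, 0.11 as a mean over cells and 0.13 after thinning. At 2-fold the members past the fold were 0 in HF-SC-like cells and 0 higher and 0 lower in hair germ-like cells. With at least 100 UMIs, the other chaperone genes lower in HF-SC-like cells went from 1 to 0, those in hair germ-like cells from 4 to 2 higher and 5 to 2 lower, and those over all kept cells from 5 to 3 higher.
Signs changed, and the cause was not tested, for these log2 ratios. Under 5% mitochondrial UMIs Hspa1a was −0.026 in hair germ-like cells, Hsph1 1.69 in inner bulge-like cells (9 and 27 cells), and Hspa1a −0.32, Dnajb1 −0.98 and Hsph1 −0.19 in sebaceous gland-like cells (6 and 6 cells). In clusters Hsph1 was 0.16 in inner bulge-like cells, and Dnajb1 −0.84 and Hspb1 −0.66 in antigen-presenting-like cells. In that last class Hspa1a was −0.24 and Dnajb1 −0.91 as a mean over cells, Dnajb1 −0.022 and Hspb1 −0.95 without 5 cells, and Dnajb1 −0.34 and Hspb1 −1.53 with each marker minimum raised by 1 UMI, an alternative chosen after seeing the data. Of 120 member log2 ratios, 60 moved beyond their counting interval or changed sign under 5% mitochondrial UMIs, 44 after thinning and 3 with totals without mitochondrial and ribosomal protein genes.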
